A study of Mus musculus with 6 samples.

Results

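The transcripts described here are the annotated Ensembl transcripts of mouse chromosome 1 in the transcript table analysed here, chosen as the entries whose name is an Ensembl transcript identifier. They are 3813 of the 10537 entries, and the other 6724 were assembled from the reads. All but 2 were found in the GENCODE vM21 reference of the GRCm38 build when the version of the identifier was ignored, 3801 of them with the same version and the same start and end. The table is ordered by position and stops before the end of the chromosome, so 1599 of the 8559 reference transcripts of chromosome 1 lie beyond its last annotated entry, and all counts, sums and adjustments refer to the portion held. The annotated entries carry 1291 gene names, of which 725 have 1 annotated transcript and 566 have several, up to 25. The median transcript has 4 exons (at most 107) and a length of 1534 bases (from 35 to 40378).

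RNA was sequenced from MC3T3-E1 Subclone 14, a clonal mouse osteoblast precursor line, in 6 libraries, 2 for each of 3 groups, kept for 72 hours. The control cells received 100 µL of PBS, the dexamethasone cells received 10 µM of this synthetic glucocorticoid, and the dexamethasone + EPC-EVs cells received the same dose with 100 µg of extracellular vesicles from endothelial progenitor cells of mouse bone marrow. The series text names fibroblasts and a shorter exposure, and this report follows the sample labels. The study calls the replicates biological, and neither it nor the sample labels say whether they were separate cultures, so the p-values measure only the spread between these 2 libraries of a group, which may be technical.

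A gene can be transcribed from several starts and spliced in several ways, and each combination of exons is a transcript, or isoform. Some annotated transcripts keep an intron inside the mature RNA or carry an early stop codon that marks the RNA for nonsense-mediated decay, and many of these yield no full-length protein. Short reads rarely span a whole transcript, so StringTie, the program behind these values, divides the reads of a gene among transcripts that share most of their exons. The unit, FPKM, scales the fragments to the length of the transcript and the depth of the library, so levels can be set side by side between transcripts of different length.

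The gene counts of the same cells totalled 6126888 and 5146760 per library in control, 6583735 and 6575094 in dexamethasone, and 12864009 and 13182014 in dexamethasone + EPC-EVs. The 13 genes encoded in mitochondrial DNA took 7.46 and 8.62% of these counts in control, 5.55 and 5.78% in dexamethasone, and 0.465 and 0.727% in dexamethasone + EPC-EVs. Both dexamethasone + EPC-EVs libraries thus stood apart from the other 4 in depth and in mitochondrial share, and the part of these differences in the results was not tested. The osteoblast marker list of 10 genes was present in full, with 6 genes at 1 CPM or more in every library. Its summed level was 15857 and 16970 CPM in control, 17742 and 18033 in dexamethasone, and 28691 and 22602 in dexamethasone + EPC-EVs. Its gene with the highest mean was Spp1, the matrix protein osteopontin, at 10270 and 11044 CPM in control, 11156 and 10917 in dexamethasone, and 5991 and 4257 in dexamethasone + EPC-EVs, where it fell (edgeR, adjusted p = 0.000155), while 3 others of the 8 markers tested were called higher, and Col1a2, a chain of type I collagen, was higher than it at 11446 and 9037 CPM. Sp7, a transcription factor of committed osteoblasts, had 26, 6, 43, 25, 260 and 46 counts in the libraries taken in the same order, and Alpl, the alkaline phosphatase of mineralizing cells, had at most 17.

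Markers of the cell type from which the vesicles came were also read from the gene counts. Of 11 endothelial markers, 8 were in the table, with a summed level of 721 and 759 CPM in control, 632 and 707 in dexamethasone, and 902 and 1298 in dexamethasone + EPC-EVs. The gene with the highest mean was Nrp2, a semaphorin co-receptor that many cell types express, at 304, 390, 255, 322, 617 and 1062 CPM in the same order, beside Cd34 at 412, 366, 374, 382, 283 and 231. Among the defining markers, Cdh5 had 1 count in dexamethasone replicate 2 and 0 in the other libraries, Tek had 8 counts in control replicate 2 and 0 in the other libraries, and Pecam1 had 1 and 21 counts in dexamethasone + EPC-EVs. Haematopoietic markers summed to at most 3.03 CPM and muscle markers to at most 13 CPM in any library. Between dexamethasone + EPC-EVs and dexamethasone, edgeR called 1 of the 4 endothelial markers tested higher and 1 lower. It called the 1 haematopoietic marker tested higher and 1 of the 2 muscle markers tested lower. In such bulk RNA, fewer cells of a type and less RNA per cell cannot be told apart, and the part of carried-over vesicle RNA or other cells was not tested.

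An FPKM of 1 or more was reached by 1128 and 1028 annotated transcripts in control, 1238 and 1199 in dexamethasone, and 1171 and 1187 in dexamethasone + EPC-EVs. The number above 0 was 2419 and 2108 in control, 2597 and 2529 in dexamethasone, and 3039 and 2970 in dexamethasone + EPC-EVs, so more transcripts were seen at low level in the more deeply sequenced libraries. With 2 libraries against 2, an exact two-sided permutation test cannot go below a p of 0.33, and such summaries are given by library with no test. Across the 1271 annotated transcripts with a mean of at least 1 FPKM, the correlation of log2(FPKM + 1) was 0.628 between the control libraries, 0.733 between the dexamethasone libraries and 0.825 between the dexamethasone + EPC-EVs libraries. These are correlations across transcripts, which are not independent of each other. Between libraries of different groups they ran from 0.433 to 0.676, so the control pair differed from each other as much as it differed from the dexamethasone libraries.

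The annotated transcripts summed to 28856 and 23146 FPKM in control, 25856 and 24654 in dexamethasone, and 11046 and 12376 in dexamethasone + EPC-EVs. Most of this sum in the first 4 libraries came from 7 single-exon pseudogene transcripts between 24611535 and 24616197 on the minus strand of chromosome 1. Each matched a mitochondrially encoded transcript over at least 90% of its length and at least 95% identity in a blastn search, as is known of this nuclear copy of mitochondrial DNA. The copies summed to 21325 and 16176 FPKM in control, 17573 and 16435 in dexamethasone, and 1809 and 2561 in dexamethasone + EPC-EVs. That is 73.9, 69.9, 68, 66.7, 16.4 and 20.7% of the annotated sum. Without them the annotated sums were 7532 and 6970 in control, 8283 and 8219 in dexamethasone, and 9237 and 9816 in dexamethasone + EPC-EVs, in 3 levels that did not overlap, whereas with the copies control and dexamethasone overlapped.

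The most abundant annotated transcript was Gm29216-201 (ENSMUST00000187117.1, chr1:24615706-24616197), a copy of part of mt-Co1, which encodes a subunit of cytochrome c oxidase. It had 8845 and 11623 FPKM in control, 9422 and 10045 in dexamethasone, and 511 and 925 in dexamethasone + EPC-EVs. The dexamethasone + EPC-EVs libraries were both far below the other 4, which lay close together. The fall against dexamethasone was −3.82 on the scale of log2(FPKM + 1), with a standard error of 0.373 (limma, Benjamini-Hochberg adjusted p = 0.042). In the gene counts the copy had 7956, 10576, 8428, 8556, 724 and 1420 counts, and mt-Co1 itself had 178248, 191702, 184218, 199044, 45979 and 67261, so both were lowest in the same libraries. The copy and mt-Co1 differ at A1066T within the 483 bases that aligned, counted from 1 at the start of the mitochondrial transcript with the mitochondrial base first. The alignment began at base 10 of the 492 bases of the copy, so reads over its unaligned first bases could also differ. Reads within the aligned bases that miss the differing base cannot be told apart by sequence. How the reads were divided between mitochondrial RNA and the nuclear copy is therefore uncertain.

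The stretch around that base is shown because, within the aligned bases, it is the difference that could separate a read of the copy from one of mitochondrial RNA. The differing base is in capitals. Both come from GENCODE vM21, and the copy is read on the minus strand with its base at chr1:24616185 of GRCm38.
Gm29216: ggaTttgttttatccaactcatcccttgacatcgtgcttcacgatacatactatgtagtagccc
mt-Co1: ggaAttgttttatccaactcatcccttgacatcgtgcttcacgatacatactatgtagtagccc
The same holds for Gm28438-201, a copy of mt-Nd3, a subunit of respiratory complex I, which differs at T3C, counted in the same way, over 345 bases. Its base lies at chr1:24613117 on the minus strand.
Gm28438: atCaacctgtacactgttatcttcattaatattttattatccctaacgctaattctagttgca
mt-Nd3: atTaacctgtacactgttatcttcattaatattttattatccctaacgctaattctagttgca

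The other 5 copies were identical to their mitochondrial transcripts over their whole length. Gm28661-201, a copy of mt-Co2, had 3243, 3677, 2877, 1893, 623 and 690 FPKM in the libraries taken in the order above, and Gm28437-201, a copy of mt-Co3, had 1342, 850, 1148, 1002, 507 and 846. Both of these were lowest in dexamethasone + EPC-EVs replicate 1, and neither passed the transcript test. Gm10925-201, a copy of mt-Atp6, had 5751 and 1.74 FPKM in control, 4092 and 3470 in dexamethasone, and 159 and 18.6 in dexamethasone + EPC-EVs. The gene counts of Gm10925 were 5268, 5451, 3214, 2714, 283 and 492, with both control libraries alike, so the 2 readouts differed in control replicate 2. Gm28439-201, a copy of mt-Nd4, had 2095 FPKM in control replicate 1, 45.9 in dexamethasone + EPC-EVs replicate 2 and under 1 in the rest, while the counts of the gene Gm28439 of 3277, 3051, 2040, 1897, 51 and 76 did not split the control libraries. Gm10222-201, the copy of mt-Nd4l at the gene Gm10222, stayed between 0.383 and 0.462 FPKM, and the only form of Gm28438 had between 7.71 and 48.

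By annotated class, 1618 of the transcripts are protein coding, 1010 retained introns, 321 processed transcripts, 220 marked for nonsense-mediated decay, 198 entries awaiting experimental check, 191 long non-coding, 166 pseudogenes and 87 small RNAs, with 2 unmatched. Protein-coding transcripts held 65.6 and 69.4% of the annotated sum without the mitochondrial copies in control, 72 and 66.5% in dexamethasone, and 72.9 and 73.8% in dexamethasone + EPC-EVs. Retained introns held 20.3 and 18.6% in control, 14.9 and 19.1% in dexamethasone, and 12.2 and 10.8% in dexamethasone + EPC-EVs. The dexamethasone + EPC-EVs libraries had the lowest retained-intron shares of the 6, and the control and dexamethasone libraries overlapped. Transcripts marked for decay held 2.46, 1.71, 2.04, 2.32, 2.71 and 5.34%, where the last value came with 1 transcript of Fn1, Fn1-205, at 311 FPKM in dexamethasone + EPC-EVs replicate 2 and at most 8.83 in the other libraries.

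By exon number, 681 transcripts have 1 exon, 1283 have 2 to 4, 980 have 5 to 9 and 869 have 10 or more. Transcripts of 10 or more exons reached 1 FPKM most often, in 33.5 to 43.6% of the class in each library, against 22.4 to 28.1% of those with 2 to 4 exons. In the 10-exon class the highest shares, 43.5 and 43.6%, were in dexamethasone + EPC-EVs, and in the single-exon class the lowest, 24.2 and 22.6%, were in the same libraries. The control and dexamethasone libraries held 28.2, 26.3, 30.5 and 28.6% of single-exon transcripts at 1 FPKM or more. By length, the shortest of 5 classes had 567 transcripts with a median of 387 bases and the longest 590 with a median of 5381. Of the shortest 15.3 to 19.6% reached 1 FPKM in a library, and of the longest 45.8 to 48.6%, with control replicate 2 lowest in both.

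Isoform use was compared between libraries in 461 genes with several annotated transcripts. The leading isoform, the one with the highest FPKM of its gene, held a median of 69.3 and 72.1% of the annotated FPKM of its gene in control, 69.2 and 69.5% in dexamethasone, and 65.8 and 64.7% in dexamethasone + EPC-EVs. The same isoform led in all 6 libraries in 146 of these genes (31.7%). The control replicates shared their leader in 59.7% of the genes, the dexamethasone replicates in 63.6% and the dexamethasone + EPC-EVs replicates in 71.6%, and libraries of different groups in 53.6 to 63.8%. The replicates of control and of dexamethasone therefore shared a leader about as often as libraries of different groups did, which limits what a change of leader can show.

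The first comparison asked which annotated transcripts differed after dexamethasone. Of the 1218 annotated transcripts tested, 4 were called at an adjusted p under 0.05 by limma with Benjamini-Hochberg adjustment, 2 higher and 2 lower in dexamethasone, against 0.127% of all 5503 entries tested. At an unadjusted p under 0.05 there were 72 (54 higher, 18 lower), or 5.91%, against 5.94% of all entries (159 higher, 168 lower). With a log2 fold change beyond 1 as well there were 71, against 5.87% of all. The share at an unadjusted p was thus near that of the whole table. The median difference was 0.15 for the annotated transcripts and −0.06 for all entries, on the log2 scale. Rescaling each library to an equal annotated sum without the mitochondrial copies moved these medians to 0.01 and −0.20 and left the 4 calls.

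Rpl7 encodes a protein of the large ribosomal subunit, and its protein-coding transcript was 1 of the 4. Rpl7-201 (ENSMUST00000058437.13, chr1:16101295-16104662, minus strand, 7 exons) had 5.12 and 5.13 FPKM in control, 130 and 87.8 in dexamethasone, and 202 and 165 in dexamethasone + EPC-EVs. Both control libraries were far below the other 4. The rise in dexamethasone was 4.13 on the scale of log2(FPKM + 1), with a standard error of 0.34 (limma, Benjamini-Hochberg adjusted p = 0.00965). The retained-intron transcript Rpl7-202 (ENSMUST00000125005.1, chr1:16102491-16104384, 4 exons) had 88.1 and 36.4 FPKM in control, was listed at 0 in both dexamethasone libraries, and had 0.248 and 0 in dexamethasone + EPC-EVs. It fell in the same fit (limma, adjusted p = 0.013), a call lost with no filter (adjusted p = 0.0529), and no fold is given against a group at 0. In this comparison it passed the filter only through the control libraries. Rpl7-202 led its gene in both control libraries and Rpl7-201 in the other 4, with leading shares of 81.6 and 74.7% in control, 94.3 and 59.7% in dexamethasone, and 94.5 and 96.3% in dexamethasone + EPC-EVs.

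The gene counts of Rpl7 did not show this difference, with 217 and 213 CPM in control, 226 and 250 in dexamethasone, and 322 and 261 in dexamethasone + EPC-EVs. Between dexamethasone and control the gene's log2 fold change was 0.07 (edgeR quasi-likelihood test, Benjamini-Hochberg adjusted p = 0.902). Another annotated form, Rpl7-204, which also retains an intron, had 12, 6.18, 5.67, 8.57, 5.23 and 3.89 FPKM, and Rpl7-205, a shorter coding form, had 47.5 FPKM in dexamethasone replicate 2 and at most 5.59 in the other libraries. Summed over all entries of Rpl7, the FPKM were 127, 48.8, 138, 147, 213 and 172, so control replicate 2 was low in summed FPKM and not in the gene counts. The cause of the differences between its forms was not tested.

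The retained stretch is shown because it is the only sequence that Rpl7-202 has and Rpl7-201 lacks: 175 bases, chr1:16103335-16103509 on the minus strand of GRCm38, from GENCODE vM21. Capitals mark the intron in Rpl7-202, and in Rpl7-201 the last base before and the first base after the splice. The 2 transcripts share 609 bases, and 554 are in Rpl7-201 alone.
Rpl7-202: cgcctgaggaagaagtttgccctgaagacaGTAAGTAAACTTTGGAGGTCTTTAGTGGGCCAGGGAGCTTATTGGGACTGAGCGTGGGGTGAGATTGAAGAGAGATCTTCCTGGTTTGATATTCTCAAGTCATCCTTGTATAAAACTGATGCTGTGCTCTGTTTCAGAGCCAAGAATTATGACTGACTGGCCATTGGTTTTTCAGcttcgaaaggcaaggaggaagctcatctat
Rpl7-201: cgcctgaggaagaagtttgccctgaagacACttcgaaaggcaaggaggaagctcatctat

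Map4k4 encodes a serine/threonine kinase of the stress-activated kinase cascades. Map4k4-204 (ENSMUST00000191761.5, chr1:39901170-39990278, plus strand, 12 exons, 1272 bases) had 76.2 and 72.9 FPKM in control, 0.0236 and 0.0405 in dexamethasone, and 3e-06 and 1.1e-05 in dexamethasone + EPC-EVs. The control libraries were high and close together, and the other 4 were near 0. The fall was −6.19 on the scale of log2(FPKM + 1), which understates ratios of low values, with a standard error of 0.409 (limma, adjusted p = 0.00674). All of its bases are also in the 30-exon form Map4k4-202, of which it has 1212 of 3714 coding bases. Several long coding forms had the opposite order, such as Map4k4-209, listed at 0 in both control libraries and at 16.9 and 12.7 FPKM in dexamethasone (adjusted p = 0.0889, not called), and Map4k4-218 with 0.4 and 0 FPKM in control and 11.2 and 11.3 in dexamethasone (adjusted p = 0.203, not called). The Map4k4 gene had 545 and 665 CPM in control and 586 and 615 in dexamethasone (edgeR, Benjamini-Hochberg adjusted p = 0.872), so the gene counts of the groups overlapped.

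Lamc1 encodes the laminin gamma 1 chain of basement membranes. Its 3-exon transcript Lamc1-204 (ENSMUST00000161744.1, chr1:153218922-153229144, minus strand, 1447 bases) had 0.509 and 0 FPKM in control, 36.8 and 59.4 in dexamethasone, and 0 and 2.06 in dexamethasone + EPC-EVs. It was high in both dexamethasone libraries and low in the other 4. It rose in dexamethasone by 5.28 on the scale of log2(FPKM + 1), with a standard error of 0.495 (limma, adjusted p = 0.013), and was lower in dexamethasone + EPC-EVs than in dexamethasone by a log2 difference of −4.77, with a standard error of 0.598 (adjusted p = 0.049). The 2 comparisons share the dexamethasone libraries. The full 28-exon form Lamc1-201 had 58.5 and 51 FPKM in control, 54.7 and 37.6 in dexamethasone, and 67.7 and 62.5 in dexamethasone + EPC-EVs, and all 1447 bases of Lamc1-204 are also in Lamc1-201. The gene counts were 674 and 677 CPM in control, 704 and 697 in dexamethasone, and 608 and 572 in dexamethasone + EPC-EVs (edgeR, adjusted p = 0.974 for dexamethasone against control). The dexamethasone call of Lamc1-204 was lost with a pseudocount of 0.1 (limma, adjusted p = 0.192), with no filter (0.0529) and with all 6 libraries in 1 fit (0.0557).

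With any 1 of the 4 libraries left out, limma called 0 annotated transcripts, and the log2 differences of these 4 kept their sign. Without the trend of the variance on the mean level, limma called 0 of them as well.

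The share of a transcript in the summed FPKM of its gene was tested for 1001 annotated transcripts, and limma with Benjamini-Hochberg adjustment called 0, against 0% of all 3248 shares tested. At an unadjusted p under 0.05 there were 56, or 5.59%, against 6.83% of all, and limma's diffSplice called 6, or 0.61%, against 0.404% of all. The diffSplice calls were Lamc1-204 and a transcript of Wdr75 with higher use in dexamethasone, and Map4k4-204, Rpl7-202 and transcripts of Ptprn and Raph1 with lower use. As a description, among genes with a mean of at least 5 FPKM, the largest differences in share without overlap outside Rpl7 were in Ptprn, Aspm and Tor3a. Ptprn-201, from a gene for a protein of secretory vesicles, had 72.6 and 85.7% of its gene in control, 0 and 0% in dexamethasone, and 12.4 and 44.7% in dexamethasone + EPC-EVs. Aspm-201, from a gene for a spindle pole protein, had 0 and 28.1% in control, 92.2 and 91.3% in dexamethasone, and 86.1 and 86.9% in dexamethasone + EPC-EVs. Tor3a-201 had 0 and 0% in control, 82.1 and 41.8% in dexamethasone, and 26.6 and 82% in dexamethasone + EPC-EVs. In each of the 3 the control and dexamethasone libraries did not overlap.

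Where both replicates of a group had the same leading isoform, both for control and for dexamethasone, 13 of 195 genes (6.67%) had another leader in dexamethasone. Beside Rpl7 these included Tram1, a protein of the translocon of the endoplasmic reticulum, chosen after its values were seen, in which the retained-intron form Tram1-202 led in control with 17.8 and 13.6 FPKM and had 6.73 and 0.767 in dexamethasone and 0.504 and 1.5 in dexamethasone + EPC-EVs. The coding form Tram1-201 had 14.7, 8.76, 9.28, 13.2, 21.7 and 21.6 FPKM. Creb1, a transcription factor activated by cyclic AMP, had a different leader in each group, Creb1-202 in control, Creb1-209 in dexamethasone and Creb1-201 in dexamethasone + EPC-EVs.

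In the gene counts, 680 genes that hold these transcripts were tested between dexamethasone and control, and 1 was called by edgeR's quasi-likelihood test, against 0.0544% of all 12879 genes, with 64 at an unadjusted p under 0.05, or 9.41%, against 10.9% of all. The called gene was the mitochondrial copy Gm10925 (log2 fold change −1.17, adjusted p = 0.0414), whose counts in each library are given above as 5268, 5451, 3214, 2714, 283 and 492. It is identical to mt-Atp6 over its 678 bases, so reads within it cannot be told from mitochondrial RNA by sequence. The mitochondrial share of the counts was also higher in control (7.46 and 8.62%) than in dexamethasone (5.55 and 5.78%), and its part was not tested. The count of called genes changed when a library was left out, where the variance of the lone library is taken from the other group. DESeq2 called 9 of 1074 genes that hold these transcripts. The share over all genes was not taken in these alternative fits.

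The second comparison asked which annotated transcripts differed when EPC-EVs were added to dexamethasone. Of 1292 annotated transcripts tested, 17 were called by limma with Benjamini-Hochberg adjustment, 9 higher and 8 lower in dexamethasone + EPC-EVs, or 1.32%, against 0.928% of all 4416 entries. At an unadjusted p under 0.05 there were 286 (145 higher, 141 lower), or 22.1%, against 24.7% of all entries (228 higher, 862 lower), and 259 had a log2 fold change beyond 1 as well, against 23.7% of all. The share at an unadjusted p was again near that of the table. The median log2 difference was −0.06 for annotated transcripts, −0.59 for all entries and −0.82 for the assembled ones. Quantile normalization moved the median of the annotated transcripts to 0.47 and that of all entries to −0.03, and it called 11 annotated transcripts, 10 higher and 1 lower. The 7 lower calls other than Tpr-201 were the ones it lost. The same rescaling as above moved the medians to −0.22 and −0.74.

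Among the 17 called were 13 protein-coding transcripts, 2 retained introns, 1 form marked for decay and 1 pseudogene. They belong to 16 genes, and in 6 of the 17 the dexamethasone libraries were both listed at 0, and in 1 both dexamethasone + EPC-EVs libraries were. Each of these passed the filter, a mean of at least 1 FPKM over the 4 libraries, only through the group where it was present. The same can hold for calls near 0 in a group, so the adjusted p-values given for them below describe the difference and are no separate support for it. Seen from control, 7 of the 17 had both control libraries nearer to dexamethasone and 2 had both nearer to dexamethasone + EPC-EVs. In 6 only control replicate 1 lay nearer to dexamethasone + EPC-EVs, and in 2 only control replicate 2. Of the 286 at an unadjusted p under 0.05, both control libraries were nearer to dexamethasone in 174 and both nearer to dexamethasone + EPC-EVs in 36, with only replicate 1 nearer to the latter in 39 and only replicate 2 in 37. These transcripts were filtered and chosen on the dexamethasone and dexamethasone + EPC-EVs libraries. The same count over all entries was not made, so the counts describe these transcripts only, and a return towards control was not tested.

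Tpr encodes a large coiled-coil protein of the nuclear pore basket, and it was the gene with calls in both directions. Tpr-201 (ENSMUST00000119161.8, chr1:150393250-150449935, plus strand, 51 exons) had 5.08 and 49.6 FPKM in control, 47.1 and 47.1 in dexamethasone, and 5.13 and 3.87 in dexamethasone + EPC-EVs. It fell by 3.14 on the scale of log2(FPKM + 1), with a standard error of 0.255 (limma, adjusted p = 0.042). Tpr-203 (ENSMUST00000124973.8, chr1:150392838-150449815, 52 exons) had 37.6 and 0 FPKM in control, was listed at 0 in both dexamethasone libraries, and had 18 and 25.8 in dexamethasone + EPC-EVs (adjusted p = 0.042). Control replicate 1 lay with the dexamethasone + EPC-EVs libraries in both transcripts and control replicate 2 with the dexamethasone libraries. Tpr-201 held 4.64, 73, 75.5, 65.3, 9.58 and 7.15% of its gene and Tpr-203 34.3, 0, 0, 0, 33.6 and 47.7%. The gene counts fell, from 548 and 601 CPM in dexamethasone to 292 and 341 in dexamethasone + EPC-EVs (log2 fold change −0.82, edgeR quasi-likelihood test, adjusted p = 0.000503), with 694 and 710 in control.

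The 2 Tpr forms share 7254 bases, with 176 in Tpr-203 alone and 226 in Tpr-201 alone. They differ at both ends, and Tpr-203 has an additional first exon and 222 more coding bases. The coding part of that exon is shown because it belongs to the called Tpr-203 alone, at chr1:150392944-150393013 on the plus strand of GRCm38, from GENCODE vM21, with all of it in capitals as it is absent from Tpr-201.
Tpr-203: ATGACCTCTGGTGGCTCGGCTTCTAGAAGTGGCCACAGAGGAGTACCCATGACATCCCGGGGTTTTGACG

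Rgl1 encodes an exchange factor for Ral GTPases, and its forms also differ in their start. Rgl1-201 (ENSMUST00000027760.13, chr1:152516951-152625217, minus strand, 18 exons) had 8.82 and 0.615 FPKM in control, 0.48 and 1.02 in dexamethasone, and 17.3 and 18.3 in dexamethasone + EPC-EVs. It rose by 3.45 on the scale of log2(FPKM + 1), with a standard error of 0.358 (limma, adjusted p = 0.042). Both dexamethasone + EPC-EVs libraries were above the other 4, with control replicate 1 between. Rgl1-203 had 1.66 and 5.82 FPKM in control, 9.75 and 5.55 in dexamethasone, and 0.0185 and 0.648 in dexamethasone + EPC-EVs, and did not pass the adjustment (adjusted p = 0.0676). The Rgl1 gene counts rose from 74.1 and 82.6 CPM to 114 and 133 (edgeR, adjusted p = 0.00415). Capitals mark the coding bases particular to each start, 27 at chr1:152624984-152625010 and 132 at chr1:152674860-152674991, both on the minus strand, followed in lower case by the exon they share.
Rgl1-201: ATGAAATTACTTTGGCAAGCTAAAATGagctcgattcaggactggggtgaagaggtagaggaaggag
Rgl1-203: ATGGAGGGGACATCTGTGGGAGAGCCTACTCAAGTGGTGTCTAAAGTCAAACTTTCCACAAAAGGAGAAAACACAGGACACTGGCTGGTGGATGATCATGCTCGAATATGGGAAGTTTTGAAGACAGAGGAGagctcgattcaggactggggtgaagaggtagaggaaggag

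Actr3 encodes a subunit of the Arp2/3 complex, which starts branches of actin filaments. Actr3-201 (ENSMUST00000027579.16, chr1:125392905-125435727, minus strand, 13 exons) had 24.4 and 0 FPKM in control, 1.18 and 0.0672 in dexamethasone, and 32.7 and 30.7 in dexamethasone + EPC-EVs. It rose by 4.42 on the scale of log2(FPKM + 1), with a standard error of 0.439 (limma, adjusted p = 0.042). Control replicate 1 was again near the dexamethasone + EPC-EVs libraries and control replicate 2 near dexamethasone. Actr3-202, which has the same 1254 coding bases and another first exon, had 34.8, 49.1, 51.9, 46.8, 55.9 and 43.8 FPKM, with all groups overlapping. The Actr3 gene had 230 and 233 CPM in dexamethasone and 302 and 292 in dexamethasone + EPC-EVs (log2 fold change 0.40, edgeR, adjusted p = 0.0211).

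Rnf25 and Rc3h1 both encode RING-type ubiquitin ligases, and in each the called form lacks a short coding stretch of the other. Rnf25-202 (ENSMUST00000113721.7, chr1:74593753-74601377, minus strand, 10 exons) had 3.55 and 0 FPKM in control, was listed at 0 in both dexamethasone libraries, and had 6.87 and 7.7 in dexamethasone + EPC-EVs (limma, adjusted p = 0.049). Rnf25-201, which has 3 more coding bases, had 4.2, 0.683, 5.01, 6.42, 3.07 and 4.02 FPKM. Rc3h1-201 (ENSMUST00000035911.4, chr1:160930024-160967817, plus strand, 19 exons) was listed at 0 in all 4 control and dexamethasone libraries and had 5.91 and 8.32 FPKM in dexamethasone + EPC-EVs (limma, adjusted p = 0.049). Rc3h1-202, with 27 more coding bases, had 4.15, 6.7, 6.82, 6.56, 3.37 and 4.13 FPKM. In both genes the called form was thus seen in dexamethasone + EPC-EVs beside a form present in every library. Rnf25 rose in the gene counts (edgeR, adjusted p = 0.0365) and Rc3h1 did not pass (adjusted p = 0.14).

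Those stretches are the only coding difference within each pair and are shown in capitals, beside the junction of the shorter form with the bases that flank the splice in capitals. They lie at chr1:74595299-74595301 on the minus strand for Rnf25 and chr1:160964950-160964976 on the plus strand for Rc3h1, in GENCODE vM21 on GRCm38.
Rnf25-201: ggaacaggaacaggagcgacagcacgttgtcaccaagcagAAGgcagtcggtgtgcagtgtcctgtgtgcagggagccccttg
Rnf25-202: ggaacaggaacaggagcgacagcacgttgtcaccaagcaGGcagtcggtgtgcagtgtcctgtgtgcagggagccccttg
Rc3h1-202: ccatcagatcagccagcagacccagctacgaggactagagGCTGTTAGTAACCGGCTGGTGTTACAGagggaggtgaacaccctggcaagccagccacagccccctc
Rc3h1-201: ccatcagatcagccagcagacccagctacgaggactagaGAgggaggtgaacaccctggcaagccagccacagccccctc

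Steap3, of the iron, redox and lipid list, encodes an endosomal ferrireductase that reduces iron delivered by transferrin. Steap3-202 (ENSMUST00000112640.7, chr1:120226423-120265284, minus strand, 5 exons) was listed at 0 in all control and dexamethasone libraries and had 7.4 and 7.35 FPKM in dexamethasone + EPC-EVs (limma, adjusted p = 0.049). Steap3-203, with the same 1464 coding bases and another first exon, had 3.76, 1.4, 6.45, 4.58, 1.58 and 0.0507 FPKM and was not called (adjusted p = 0.113). Among its annotated forms Steap3-203 led in the control and dexamethasone libraries and Steap3-202 in both others. The gene had 46.9 and 32.2 CPM in dexamethasone and 41.4 and 27 in dexamethasone + EPC-EVs, which overlapped (edgeR, adjusted p = 0.643).

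Chpf encodes a chondroitin polymerizing factor. Chpf-204 (ENSMUST00000138683.1, chr1:75474576-75479119, minus strand), marked for decay, was listed at 0 in all control and dexamethasone libraries and had 14.6 and 7.85 FPKM in dexamethasone + EPC-EVs (limma, adjusted p = 0.049). All of its 2455 bases are in the coding form Chpf-201, which had 0, 0, 8.86, 2.26, 8.01 and 16.7 FPKM. The Chpf gene rose from 53.6 and 47 CPM in dexamethasone to 93.7 and 121 (log2 fold change 1.14, edgeR, adjusted p = 0.000485), so the decay-marked form was called in a gene whose count was also higher.

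Hdlbp encodes vigilin, an RNA-binding protein. Hdlbp-205 (ENSMUST00000186787.6, chr1:93437119-93445432, minus strand), a 5-exon form of 671 bases, had 6.27 and 0 FPKM in control, was listed at 0 in both dexamethasone libraries, and had 25.9 and 12.7 in dexamethasone + EPC-EVs (limma, adjusted p = 0.042). The 28-exon form Hdlbp-202 had 58.3, 8.8, 58.7, 74.8, 81.5 and 74.1 FPKM, and only control replicate 2 was low in it. The gene counts did not pass (edgeR, adjusted p = 0.34).

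Dock10 and Arfgef1 encode guanine nucleotide exchange factors, and each had a shortened coding form that fell. Dock10-202 (ENSMUST00000186087.6, chr1:80586330-80709496, minus strand, 13 exons) had 0.916 and 0 FPKM in control, 6.66 and 9.93 in dexamethasone, and 5.6e-05 and 0 in dexamethasone + EPC-EVs (log2 difference −3.19, standard error 0.401, limma adjusted p = 0.049). Arfgef1-203 (ENSMUST00000131556.1, chr1:10173075-10232670, minus strand, 20 exons) had 7.28 and 0 FPKM in control, 5.59 and 7.46 in dexamethasone, and was listed at 0 in both dexamethasone + EPC-EVs libraries (limma, adjusted p = 0.0498). Dock10-202 was thus high in dexamethasone alone, and Arfgef1-203 was high in 3 of the 4 other libraries. The full-length Arfgef1-201 had 6.95, 12.7, 9.08, 9.32, 8.11 and 11.2 FPKM with all groups overlapping. Both genes were lower in the gene counts (edgeR, adjusted p = 0.00224 for Dock10 and 0.0456 for Arfgef1).

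Dock10-202 has 210 bases that the full-length Dock10-201 lacks and Arfgef1-203 has 119 that Arfgef1-201 lacks. The coding bases among these are in capitals, 162 at the start, chr1:80709287-80709448, and 33 at the end, chr1:10173161-10173193, both on the minus strand in GENCODE vM21 on GRCm38.
Dock10-202: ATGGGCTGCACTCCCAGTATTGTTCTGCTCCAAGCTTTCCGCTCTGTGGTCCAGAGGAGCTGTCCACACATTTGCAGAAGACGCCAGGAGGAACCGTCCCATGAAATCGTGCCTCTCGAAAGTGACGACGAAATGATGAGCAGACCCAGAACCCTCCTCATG
Arfgef1-203: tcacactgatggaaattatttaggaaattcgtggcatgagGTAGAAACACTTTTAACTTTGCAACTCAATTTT

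Nabp1 encodes a single-stranded DNA-binding protein of the DNA damage response. Its retained-intron form Nabp1-203 (ENSMUST00000185961.1, chr1:51471339-51473396, minus strand) had 8.13 and 29 FPKM in control, 8.24 and 14.5 in dexamethasone, and 0.258 and 0.00108 in dexamethasone + EPC-EVs (log2 difference −3.42, standard error 0.441, limma adjusted p = 0.049). C130026I21Rik-205 (ENSMUST00000161267.7, chr1:85112267-85270178, minus strand) had 20.7 and 31.6 FPKM in control, 12.9 and 28.4 in dexamethasone, and 0.683 and 0.733 in dexamethasone + EPC-EVs (log2 difference −3.56, standard error 0.463, adjusted p = 0.049). In both, the 4 libraries without EPC-EVs were above both libraries with them. The C130026I21Rik gene fell in the counts (edgeR, adjusted p = 0.000235), and Nabp1 did not pass (adjusted p = 0.0933).

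Fn1 encodes fibronectin, and 17 of its 24 entries in the table are annotated. Its retained-intron form Fn1-207 (ENSMUST00000186879.1, chr1:71644477-71653172, minus strand, 6 exons) had 3.75 and 13.7 FPKM in control, 4.07 and 4.66 in dexamethasone, and 25.3 and 20.5 in dexamethasone + EPC-EVs. It rose by 2.15 on the scale of log2(FPKM + 1), with a standard error of 0.277 (limma, adjusted p = 0.049), and this call was lost when libraries were rescaled without the mitochondrial copies (adjusted p = 0.0535). The full-length coding form Fn1-201 had 11.6, 582, 37.8, 7.26, 13.7 and 120 FPKM, and the retained-intron form Fn1-215 had 324, 137, 49.2, 321, 60.2 and 27.5. Both forms differed widely between replicates, Fn1-201 most in control and Fn1-215 most in dexamethasone. The summed FPKM of all Fn1 entries was 2121, 1312, 2047, 2233, 2522 and 2322, and the gene counts were 18935 and 16521 CPM in control, 19365 and 19355 in dexamethasone, and 23141 and 19313 in dexamethasone + EPC-EVs (edgeR, adjusted p = 0.228).

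Of the 16 genes with a called transcript, all were tested in the gene counts and edgeR called 10, 4 higher and 6 lower. Over all 722 genes that hold annotated transcripts and were tested, 254 were called between dexamethasone + EPC-EVs and dexamethasone, 108 higher and 146 lower, or 35.2%, against 39.8% of all 13556 genes. Without dexamethasone replicate 2 the count was 142. The median log2 fold change of these genes was −0.21, against 0.01 for all genes.

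The 17 transcript calls depended on the libraries. With any 1 library left out the count was between 0 and 3, with 0 without dexamethasone replicate 1 and without dexamethasone replicate 2, 3 without dexamethasone + EPC-EVs replicate 1 and 2 without dexamethasone + EPC-EVs replicate 2. Under quantile normalization Gm29216-201 was no longer called (log2 difference −0.72, limma, adjusted p = 0.506).

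The share of a transcript in its gene was tested for 1166 annotated transcripts in this comparison, and limma with Benjamini-Hochberg adjustment called 0, against 0% of all 3213 shares tested. At an unadjusted p under 0.05 there were 174 (128 higher, 46 lower), or 14.9%, against 13.8% of all (232 higher, 210 lower), and limma's diffSplice called 54, 42 higher and 12 lower, or 4.73% of those it tested, against 3.25% of all (65 higher, 38 lower). The strongest diffSplice calls, at an adjusted p of 0.00257, included Steap3-202, Rgl1-201, Rc3h1-201, Rgl1-203 and Tpr-201, with Ivns1abp, Kdelc1 and 2310035C23Rik. As a description, among genes with a mean of at least 5 FPKM, the largest differences in share with no overlap between the groups were in Gm25360, Edem3, Ugt1a7c, Bok and Casp8. Of these, diffSplice called the use of Casp8-201 higher (adjusted p = 0.00603) and that of Edem3-201 lower (adjusted p = 0.00977). Casp8-201, a form of the initiator caspase of death receptor signalling, held 59.4 and 0% of its gene in control, 0 and 4.29% in dexamethasone, and 62.2 and 68% in dexamethasone + EPC-EVs. Control replicate 1 was near dexamethasone + EPC-EVs, as in Tpr and Actr3.

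Edem3-201, from a gene for a mannosidase-like protein that acts in disposal of misfolded glycoproteins, held 100 and 41.9% in control, 76.9 and 92.1% in dexamethasone, and 7.42 and 13% in dexamethasone + EPC-EVs. Its FPKM were 12.6, 6.43, 12.4, 14.9, 0.982 and 1.94, and both dexamethasone + EPC-EVs libraries were lowest. Bok-201, from Bok, a gene of the Bcl-2 family listed at 0 in control replicate 2, held 2.85% in control replicate 1, 20 and 5.98% in dexamethasone, and 83.8 and 75.2% in dexamethasone + EPC-EVs, at 0.304, 0, 1.63, 0.306, 7.26 and 4.44 FPKM. Ugt1a7c-202, from a gene for a glucuronosyltransferase, held 48.4 and 0% in control, 10.3 and 13.8% in dexamethasone, and 78.6 and 79.7% in dexamethasone + EPC-EVs, at 1.54, 0, 1.14, 0.924, 2.84 and 2 FPKM. Gm25360-201, a small RNA, held 100 and 59.1% of its gene in control, at 0.0867 and 1.35 FPKM, was listed at 0 in dexamethasone, and held 77.7 and 100% in dexamethasone + EPC-EVs, at 8.93 and 4.6 FPKM.

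Where both replicates shared a leading isoform in dexamethasone and in dexamethasone + EPC-EVs, 32 of 231 genes (13.9%) had another leader in dexamethasone + EPC-EVs. They included Rgl1, Rc3h1, Rnf25, Steap3, Edem3 and C130026I21Rik, described above, and Hdac4, a histone deacetylase that restrains Runx2, with Hdac4-210 leading in dexamethasone and Hdac4-201 in dexamethasone + EPC-EVs. The control libraries had 2 other leaders of Hdac4, Hdac4-207 and Hdac4-203, so its leader also differed between replicates.

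Of the class medians in this comparison, that of the 723 protein-coding transcripts tested was 0.11, that of the 335 retained introns −0.35, that of the 51 processed transcripts −0.35 and that of the 44 forms marked for decay 0.14, on the log2 scale. By exon number the medians were −0.27, −0.20, 0.04 and 0.09 from the single-exon class to that with 10 or more. By length they were −0.35 in the shortest class and 0.08 in the longest. Retained introns had 66 transcripts at an unadjusted p under 0.05, 24 higher and 42 lower, and protein-coding transcripts 184, 101 higher and 83 lower, beside 22.1% of the annotated transcripts and 24.7% of all entries. Between dexamethasone and control the medians were 0.21 for protein-coding transcripts and 0.12 for retained introns. The depth and mitochondrial share of the libraries, given above, also differed between these groups, and their part was not tested.

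Osteoblasts secrete the collagens and glycoproteins of the bone matrix. The matrix list gave 71 annotated transcripts of 18 genes, summing to 985 and 1272 FPKM in control, 1049 and 1088 in dexamethasone, and 1379 and 2190 in dexamethasone + EPC-EVs. Of 45 tested between dexamethasone + EPC-EVs and dexamethasone, 2 were called by limma (Fn1-207 higher, Lamc1-204 lower), 13 were higher and 5 lower at an unadjusted p under 0.05, and the median log2 difference was 0.81, against −0.06 for the annotated transcripts and −0.59 for all entries. Of 42 tested between dexamethasone and control, 1 was called, 3 were higher and 0 lower at an unadjusted p under 0.05, and the median was 0.36. Beside the counts of this list and those below, an unadjusted p under 0.05 was reached for dexamethasone + EPC-EVs by 22.1% of the annotated transcripts and 24.7% of all entries, and for dexamethasone by 5.91 and 5.94%, with medians of 0.15 and −0.06 in the latter.

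Fmod-201 (ENSMUST00000048183.7, chr1:134037254-134048277), from the gene for fibromodulin, a proteoglycan that binds collagen fibrils, had 105 and 94.8 FPKM in control, 149.3 and 149.2 in dexamethasone, and 267 and 296 in dexamethasone + EPC-EVs. The groups did not overlap in either comparison and neither passed the transcript test (limma, adjusted p = 0.0957 and 0.82). In the gene counts Fmod was called higher in dexamethasone + EPC-EVs (log2 fold change 0.77, edgeR quasi-likelihood test, adjusted p = 0.000327). It held between 89.2 and 99.7% of its gene in each library.

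Col3a1-201 (ENSMUST00000087883.12, chr1:45311538-45349706, 51 exons), from the gene for the chain of type III collagen, had 90.9 and 35.3 FPKM in control, 112 and 88.7 in dexamethasone, and 245 and 175 in dexamethasone + EPC-EVs (limma, adjusted p = 0.105). Col5a2-201 (ENSMUST00000086430.4, chr1:45374321-45503282, 54 exons), from the gene for a chain of type V collagen, had 49.2, 34.9, 65.9, 70.7, 173 and 117 FPKM (limma, adjusted p = 0.1). Both dexamethasone + EPC-EVs libraries were the highest in each, and the genes Col3a1 (edgeR, adjusted p = 0.00131) and Col5a2 (adjusted p = 0.00037) rose in the counts. Serpine2-201, from Serpine2, the gene for the protease inhibitor nexin-1 and chosen after its values were seen, had 43.7, 47.5, 60.7, 56.8, 27 and 16.7 FPKM and was lowest in dexamethasone + EPC-EVs (limma, adjusted p = 0.0759). Gm47302-201, annotated as a microRNA precursor of 141 bases at chr1:45311673-45311813, had 208, 106, 229, 295, 452 and 334 FPKM, and it lies within the first exon of Col3a1-201 on the same strand, chr1:45311538-45311832. Reads that lie within these 141 bases cannot be assigned to 1 of the 2 by sequence.

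Among skeletal transcription factors and signalling genes, 53 annotated transcripts of 19 genes summed to 127, 114, 148, 141, 169 and 154 FPKM. Of 20 tested for dexamethasone + EPC-EVs, limma called 0, with 6 at an unadjusted p under 0.05, and of 18 for dexamethasone it called 0, with 2. The medians were 0.22 and 0.25. Prrx1-204, a homeobox factor of limb and skull mesenchyme, had 25.5, 18.8, 29.5, 26.7, 24 and 18.8 FPKM, and En1-201, another homeobox factor, 10.9, 6.71, 15.4, 12.3, 19.2 and 19.1. Irs1-201, the main substrate of the insulin and IGF1 receptors, had 19.2, 13.2, 19.5, 21, 35.2 and 27.6. Bmpr2-201, a receptor of bone morphogenetic proteins, had 16.4, 13.6, 15.8, 13.8, 10.7 and 10.9, and Fzd7-201, a Wnt receptor and the sole form of its gene, had 11.5, 8.99, 10.6, 11.5, 7.09 and 10.2. Irs1-201 and En1-201 were highest and Bmpr2-201 lowest in dexamethasone + EPC-EVs, with no call by the limma test of transcript levels. Against dexamethasone, limma's diffSplice called the use of Irs1-201 higher (adjusted p = 0.0247).

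The inflammation and prostaglandin list gave 51 transcripts of 16 genes, of which 27 and 25 were tested in the 2 comparisons. Limma called 0 in both, with 7 at an unadjusted p under 0.05 for dexamethasone + EPC-EVs and 0 for dexamethasone, and the medians were −0.46 and 0.31. Mapkapk2-201, a kinase downstream of p38, had 8.49, 7.91, 13.2, 10.8, 34 and 33.1 FPKM (adjusted p = 0.0666 for dexamethasone + EPC-EVs), and Rgs2-202, a regulator of G protein signalling, had 0.732, 3.1, 2.58, 1.43, 12.4 and 12.2 (adjusted p = 0.0666). Pla2g4a-201, the cytosolic phospholipase A2 that releases arachidonic acid for prostaglandins, had 20.7, 20, 22.6, 25.8, 12.4 and 9.69 (adjusted p = 0.0908). In these 3 the dexamethasone + EPC-EVs libraries lay outside the range of the other 4, and the Mapkapk2 gene was called higher in the counts (edgeR, adjusted p = 9.84e-05). Against dexamethasone, limma's diffSplice also called the use of Mapkapk2-201 higher (adjusted p = 0.0346). Il1rl1-203, a form of the interleukin 33 receptor, had 8.32, 64, 44, 2.68, 9.47 and 12.2, split between the replicates of control and of dexamethasone.

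In the cell death and stress response list, 39 transcripts of 12 genes were found, 22 and 19 were tested, and limma called 0, with 3 and 1 at an unadjusted p under 0.05 and medians of 0.17 and 0.08. Phlda3-201, a p53 target that restrains Akt, had 28.3, 9.03, 44.2, 35.5, 109 and 93.9 FPKM (adjusted p = 0.0676 for dexamethasone + EPC-EVs). Hspe1-201, the mitochondrial co-chaperonin, had 79.8, 83, 88.7, 112, 33.3 and 47.1 (adjusted p = 0.077), while its neighbour Hspd1-201, the chaperonin itself, had 67.6, 56.6, 60.4, 25.9, 43.1 and 37.3. The Hspe1 gene fell in the counts (edgeR, adjusted p = 3e-04) and the Phlda3 gene rose (adjusted p = 0.000147). Btg2-201, an antiproliferative factor, had 11.7, 9.09, 12.1, 10.7, 13.2 and 10.4 FPKM, but its share of the gene was 81.5, 81.2, 82.1, 72.8, 34.8 and 37.1%, and the gene rose in the counts (adjusted p = 0.0031). Fam129a-205 had between 23.1 and 30.1 FPKM in all libraries but control replicate 2, at 5.66.

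The iron, redox and lipid list gave 102 transcripts of 17 genes, with 39 and 40 tested. For dexamethasone + EPC-EVs 1 was called, Steap3-202, 9 had an unadjusted p under 0.05 (4 higher, 5 lower) and the median was −0.36. For dexamethasone limma called 0, with 3 at an unadjusted p under 0.05 and a median of 0.40. Idh1-201, the cytosolic isocitrate dehydrogenase that makes NADPH, had 12.1, 4.44, 16, 13.2, 38.1 and 49 FPKM (adjusted p = 0.0666), and its gene was called in the counts (edgeR, adjusted p = 2e-04). Glul-201, glutamine synthetase, had 23.5, 18.6, 22.6, 18.2, 17.5 and 17.7, Acsl3-205, a long-chain acyl-CoA synthetase, 13.7, 1.03, 28.1, 11.2, 25 and 28.4, and the respiratory chain forms Cox5b-204 and Ndufb3-201 between 9.26 and 15.5. Idh1-201 was the one of these 5 whose dexamethasone + EPC-EVs libraries both lay above all others.

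The cell cycle and DNA replication list gave 73 transcripts of 14 genes, with 31 and 35 tested. For dexamethasone + EPC-EVs 3 were called, both Tpr forms and Nabp1-203, 4 were higher and 6 lower at an unadjusted p under 0.05, and the median was −0.07. For dexamethasone limma called 0, with 1 at an unadjusted p under 0.05 and a median of −0.13. Mcm6-201, a subunit of the replicative helicase, had 5.19, 6.02, 10.7, 11.5, 22 and 17 FPKM, in 3 levels that did not overlap and with no call (adjusted p = 0.162 for dexamethasone + EPC-EVs). Tpr-213, an 11-exon form, had 51.4, 9.87, 2.28, 16.6, 22.9 and 18.3, and Kifap3-201, an adaptor of a kinesin, 13.4, 15.6, 17.8, 17.5, 18 and 12.5.

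The RNA processing, translation and snoRNA host list gave 130 transcripts of 16 genes, summing to between 514 and 782 FPKM. Of 46 tested for dexamethasone + EPC-EVs, 1 was called, 3 were higher and 9 lower at an unadjusted p under 0.05, and the median was −0.51. Of 55 tested for dexamethasone 2 were called, both of Rpl7. In that comparison 3 were higher and 4 lower at an unadjusted p under 0.05, and the median was 0.002. Rpl37a-201, a ribosomal protein, had 73, 61.7, 120, 79.5, 227 and 276 FPKM (adjusted p = 0.0822 for dexamethasone + EPC-EVs), and Rpl31-201 had 69.9, 36.4, 94.6, 86.2, 66.2 and 60.4. Eef1b2-204, a translation elongation factor subunit, had 19.8, 0.89, 2.52, 25.8, 56.2 and 46.4. Rpl37a-201 and Eef1b2-204 were highest in dexamethasone + EPC-EVs, and the Rpl37a gene was called higher in the counts (edgeR, adjusted p = 0.000404).

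The contractile and cytoskeleton list gave 92 transcripts of 13 genes, with 39 tested for dexamethasone + EPC-EVs and 1 called, Actr3-201, 3 higher and 5 lower at an unadjusted p under 0.05, and a median of 0.08. Of 34 tested for dexamethasone limma called 0, with 2 at an unadjusted p under 0.05 and a median of 0.20. Csrp1-201, a LIM protein of actin bundles, had 71.3, 30.4, 83.2, 36.9, 98 and 139 FPKM, and Arpc2-201 and Arpc5-201, of the same complex as Actr3, had 56.4, 71.4, 48.6, 68.8, 73.6 and 67.4, and 8.22, 26.2, 10.7, 41, 34.4 and 16.9. The groups overlapped in Arpc2-201 and Arpc5-201, and in Csrp1-201 both dexamethasone + EPC-EVs libraries were highest.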

How the data were processed

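The authors filtered reads by quality, aligned them with HISAT2, counted genes with HTSeq 0.6.1 and deposited the counts without normalization. The authors made the deposited transcript FPKM with StringTie; its strand option is not stated. The transcript table ends in an incomplete last entry, which was dropped. For FPKM, log2(FPKM + 1) of entries with a mean of at least 1 FPKM was fitted with limma 3.58.1 (trend, robust). Shares (at least 5%, gene mean at least 1 FPKM) were fitted on the arcsine square root scale. For gene counts, edgeR 4.0.16 (TMM, filterByExpr, quasi-likelihood, robust) was used, and DESeq2 1.42.0 as an alternative, all under R 4.3.3. All p-values were adjusted by Benjamini-Hochberg over all entries tested, and an adjusted p under 0.05 was called. CPM are counts scaled to the library total. Copies were found with blastn 2.17.0. Named transcripts were those called with a mean of at least 5 FPKM and no overlap, the 5 largest share differences, the abundant and called list members, and the 10 most abundant. Rnf25-202, Rc3h1-201, Dock10-202, Arfgef1-203 and further forms of named genes were chosen after their values were seen. The members and lists were chosen with earlier results of these data known. Fits were tested on simulated data.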

Additional observations from a re-analysis of the deposited data

How the results depend on the processing

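The 17 annotated transcripts called for dexamethasone + EPC-EVs became 2 with a pseudocount of 0.1, 0 with a filter at a mean of 0.1 FPKM, 0 with no filter, 11 with quantile normalization, 1 with all 6 libraries in 1 fit, 0 without the variance trend, and 259 at an unadjusted p under 0.05 with a log2 fold change beyond 1. Rescaling without the mitochondrial copies, chosen after seeing the data, gave 18. With 1 library left out the count was 0 to 3. The 4 called for dexamethasone became 3 with a pseudocount of 0.1, 2 with no filter, 0 without the trend and 71 at the unadjusted threshold, and 0 to 0 with 1 library left out. Of the called transcripts with a mean of at least 5 FPKM, 12 for dexamethasone + EPC-EVs and 4 for dexamethasone were followed through these settings, and none turned its direction. Shares called numbered 0 in both comparisons, 54 and 6 by diffSplice, and 2 and 2 with all 6 libraries in 1 fit. Genes called for dexamethasone + EPC-EVs numbered 254, and 142 to 229 with 1 library left out. For dexamethasone the 1 called gene became 9 with DESeq2, 11 with no filter, and 0 to 89 with 1 library left out. In these fits the variance of the lone library is taken from the other group. The cause of these changes was not tested.

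With the replicate number as a replicate block, 49 of 1292 annotated transcripts were called for dexamethasone + EPC-EVs and 7 of 1218 for dexamethasone. All 17 and 4 calls were kept. For dexamethasone 5 of 680 genes were called. The shares over all entries and genes were not taken in this fit. The labels link same-numbered libraries by the number alone. Across 1271 annotated transcripts their deviations from the group means correlated at 0.0204, 0.00795 and 0.0258. Replicates differed widely in transcript FPKM, so these values cannot show whether same-numbered libraries shared a batch.

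Transcripts detected numbered 2122, 1850, 2264, 2196, 2599 and 2520 at 0.1 FPKM and 2419, 2108, 2597, 2529, 3039 and 2970 above 0, in the library order of the report, against 1128, 1028, 1238, 1199, 1171 and 1187 at 1 FPKM.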
